A study of Homo sapiens with 12 samples.

Results

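A list of 50 genes of the DNA replication machinery was followed through 4 treatments of HT-29 cells, a human colon adenocarcinoma cell line. The members were picked by gene symbol from this list, among 26485 genes listed in each deposited table, and all 50 passed the filter of a mean of at least 10 normalized reads that left 11717 genes to test. HT-29 cells had been exposed for 8 h to TSZ with 10 μM Nec-1s, to TSZ alone, to 10 ng/ml TNFα alone, or to DMSO as the vehicle, with 3 libraries in each group. TSZ is 10 ng/ml TNFα with 50 nM SM-164, a Smac mimetic, and 20 μM zVAD, a pan-caspase inhibitor, a mixture used to drive necroptosis. Nec-1s inhibits the RIPK1 kinase. Poly(A)-selected RNA was sequenced from this 1 cell line. No source states if libraries of 1 group came from separate cultures, and the spread behind each p-value may thus be technical.

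DNA replication starts at origins that the origin recognition complex marks, and CDC6 and CDT1 load the MCM2 to MCM7 ring there in G1. CDC45 and the GINS complex join the ring to form the working helicase at the start of S phase, after which primase and the polymerases, the PCNA clamp with its loader, and the single-strand binding protein RPA copy the strands. Many of these genes are switched on before S phase by E2F transcription factors, and colon cancer lines such as HT-29 cycle continuously in culture.

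The deposited tables give group means of scaled counts, from which the whole reads of each library were solved, and an estimated 8781228 to 12731837 reads were assigned to genes per library. A normalized read is a read count divided by the library's size factor. The libraries carry no replicate number and are lettered a to c within a group by falling size factor. Within their groups, DMSO b, TSZ a and TNFα a leaned towards AT-rich transcripts, with rank correlations of -0.81, -0.75 and -0.61 between GC content and deviation from the group mean over 10892 genes, whereas the TSZ+Nec-1s libraries gave -0.15 to 0.24. These libraries are kept, and values without them are given beside the calls and counts named below that were lost or moved. Of the colon epithelial markers, EPCAM, KRT8, KRT18 and KRT19 were abundant, whereas CDX1, CDX2, FABP1 and CDH17 were under 10 normalized reads in each group mean. Of 10 leukocyte markers, 6 averaged under 10 normalized reads, and CD3E, CD3D, MS4A1 and PTPRC of these were at 0 in each group. The others included LYZ, at 15309 in TSZ+Nec-1s, 19873 in TSZ, 15016 in TNFα and 14922 in DMSO, CD68, at 158, 550.5, 174 and 154 in the same order, and ITGAM, at 218, 117, 134 and 9.33. The summed fibroblast and endothelial list, led by COL1A1, was 351 normalized reads in TSZ, against 52.05 in TSZ+Nec-1s, 53.2 in TNFα and 133 in DMSO, and the part of both lists in the results was not tested.

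In TSZ cells the replication genes were lower as a group than in DMSO cells. Of the 50 members, 39 were lower and 1 was higher at an adjusted p under 0.05 (limma, Benjamini-Hochberg over all 11717 genes), against 24.2% of all genes tested that were lower and 25.9% that were higher. The median log2 fold change was -0.8 over the members and -0.02 over all genes tested. A fall of at least 1.5-fold was called for 33 members, against 17.2% of all genes, and a fall of at least 2-fold for 17 members, against 8.2%. In 37 members each of the 3 TSZ libraries lay below each of the 3 DMSO libraries, which held for 25.1% of all genes.

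With Nec-1s added to TSZ, 36 members were higher than in TSZ alone and 0 were lower, against 19.8% and 22.6% of all genes. At an unadjusted p under 0.05 limma gave 38 higher and 1 lower. The share of all genes at that threshold was not counted, here or below, so these counts are not read as a result about the members. A difference of at least 2-fold was called for 10 members, against 5.32% of all genes, and in 40 members each TSZ+Nec-1s library lay above each TSZ library, against 28.1%. The median log2 fold change was 0.58 over the members. Of the 39 members lower in TSZ than in DMSO, 33 were called higher in TSZ+Nec-1s than in TSZ, against 64.8% of the 2837 genes lower in TSZ. The 6 members that were not called are CDC45, CDT1, LIG1, POLD1, RFC1 and TYMS. Both comparisons use the same TSZ libraries, so the values are set side by side and neither is a check of the other. The share of all assigned reads that fell on the 50 members was 0.65 to 0.66% in the TSZ+Nec-1s libraries, 0.391 to 0.397% in the TSZ libraries, 0.716 to 0.721% in the TNFα libraries and 0.784 to 0.813% in the DMSO libraries. RNA from a dish of cells gives a mean over cells, in which fewer replicating cells and less RNA per cell cannot be told apart.

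Scaling sets where 0 lies in these comparisons. With total reads in place of the size factors, the median of all genes moved to -0.43 in TSZ over DMSO and to 0.35 in TSZ+Nec-1s over TSZ. The medians of the members moved with it, to -1.21 and 0.91. A change of scale shifts all genes of a library alike, so it leaves the distance between the members and all genes nearly unchanged by construction. All 50 members were then below 0 in TSZ over DMSO, as was the median of all genes. On that scale 48.5% of all genes were called lower, and the share of all genes below 0 was not counted.

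**Figure D1:**
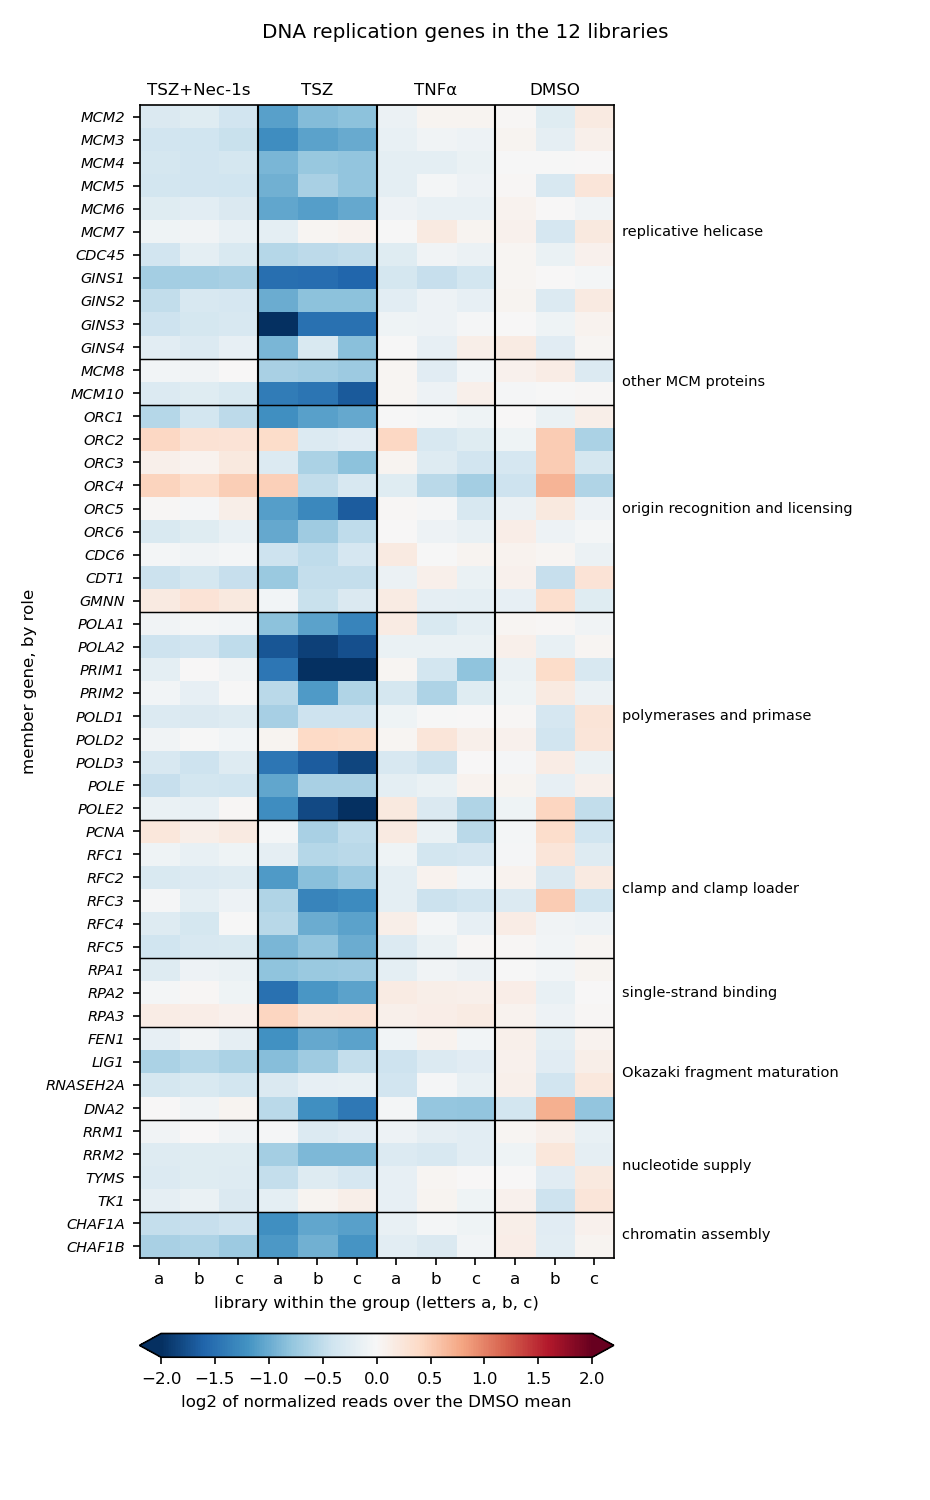
Log2 of normalized reads over the DMSO mean for the 50 members (rows, by role) in the 12 libraries (columns, lettered a to c in each group); blue is below and red above the DMSO mean, and values past 2 in size share the end colour. The TSZ columns are blue over most rows, with MCM7, POLD2, RPA3 and TK1 as pale or red rows.

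The helicase genes fell together except for MCM7. Of the 11 genes for MCM2 to MCM7, CDC45 and GINS, 10 were lower in TSZ than in DMSO, with a median log2 fold change of -0.86, and 9 were higher in TSZ+Nec-1s than in TSZ. MCM2 had 4139.7, 4257 and 3880.1 normalized reads in the TSZ+Nec-1s libraries and 2387, 2753 and 2859.8 in the TSZ libraries. For MCM2, the TNFα libraries held 4627, 5235 and 5240.5 and the DMSO libraries 5154, 4256 and 5723. Each TSZ library lay below each DMSO library (log2 fold change -0.91 ± 0.11 SE, adjusted p = 2.56e-05), and the TSZ+Nec-1s libraries lay above TSZ (log2 fold change 0.62 ± 0.12 SE, adjusted p = 0.000886). MCM3 had 3909.6, 3856 and 3746 normalized reads in the TSZ+Nec-1s libraries and 2146, 2433 and 2541 in the TSZ libraries. For MCM3, the TNFα libraries held 4605, 4819 and 4747 and the DMSO libraries 5293, 4499.7 and 5459. Its log2 fold change was -1.10 in TSZ over DMSO (adjusted p = 7.7e-07) and 0.70 in TSZ+Nec-1s over TSZ (adjusted p = 7.8e-05). MCM4 had 4982, 4867 and 4967 normalized reads in the TSZ+Nec-1s libraries and 3380.2, 3766 and 3674 in the TSZ libraries. For MCM4, the TNFα libraries held 5579, 5578 and 5809 and the DMSO libraries 6352, 6332 and 6380.1. It stood at 56.7% of its DMSO level in TSZ (adjusted p = 9.33e-07).

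MCM5 had 1889, 1875 and 1852 normalized reads in the TSZ+Nec-1s libraries and 1256, 1559 and 1409 in the TSZ libraries. For MCM5, the TNFα libraries held 2130.3, 2379 and 2282 and the DMSO libraries 2472, 1957 and 2887. It stood at 58.2% of its DMSO level in TSZ (adjusted p = 0.000271), and the 3 TSZ+Nec-1s libraries lay above the 3 TSZ libraries. MCM6 had 1983, 2029 and 1925 normalized reads in the TSZ+Nec-1s libraries and 1140.4, 1098 and 1151 in the TSZ libraries. For MCM6, the TNFα libraries held 2192, 2132 and 2118 and the DMSO libraries 2456, 2363 and 2233, with no overlap between TSZ and any other group (log2 fold change -1.06 ± 0.08 SE, adjusted p = 1.77e-07). MCM7, a subunit of the same ring, had 6131, 6197 and 5915 normalized reads in the TSZ+Nec-1s libraries and 5709, 6736 and 6878 in the TSZ libraries. For MCM7, the TNFα libraries held 6463, 7373 and 6793 and the DMSO libraries 6968, 5181 and 7449. Its TSZ values lay within the DMSO range, and neither comparison was called (log2 fold change -0.01, adjusted p = 0.957 in TSZ over DMSO). The low end of that range was DMSO b alone, an AT-leaning library, and each TSZ library lay below DMSO a and DMSO c. With total reads as the scale MCM7 was called lower in TSZ (log2 fold change -0.42, adjusted p = 0.00447), and without the 3 AT-leaning libraries it was called lower in TSZ+Nec-1s than in TSZ (-0.16, adjusted p = 0.00978).

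Ratios within a library do not depend on the scale. They are not free of a GC lean where the paired genes differ in GC, as MCM6 (43.2%) and MCM7 (55.8%) do. MCM6 over MCM7 was 0.456 in DMSO b, against 0.353 in DMSO a and 0.3 in DMSO c. The part of GC in the ratios was not tested. The ratio of MCM3 to MCM7 reads was 0.638, 0.622 and 0.633 in the TSZ+Nec-1s libraries, 0.376, 0.361 and 0.369 in the TSZ libraries, 0.713, 0.654 and 0.699 in the TNFα libraries and 0.76, 0.869 and 0.733 in the DMSO libraries. Among the ratios of MCM2, MCM3, MCM4, MCM5 and MCM6 to MCM7, the TSZ libraries lay below the DMSO libraries and below the TSZ+Nec-1s libraries in each case. The exact permutation test of each log2 ratio gave p = 0.1, the smallest value that 3 libraries against 3 allow, and an adjusted p of 0.108. These were among 14 ratios between partner subunits that were computed, of which 13 lay lower in each TSZ library than in each DMSO library and 1, POLE2 over POLE, overlapped. In TSZ+Nec-1s over TSZ 13 lay higher and POLA2 over POLA1 overlapped. In each of the 14 the member with the lower log2 fold change in TSZ over DMSO was set on top. The direction of the ratios thus follows from the fold changes and is no separate result. Ratios of other gene pairs were not computed.

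**Figure D2:**
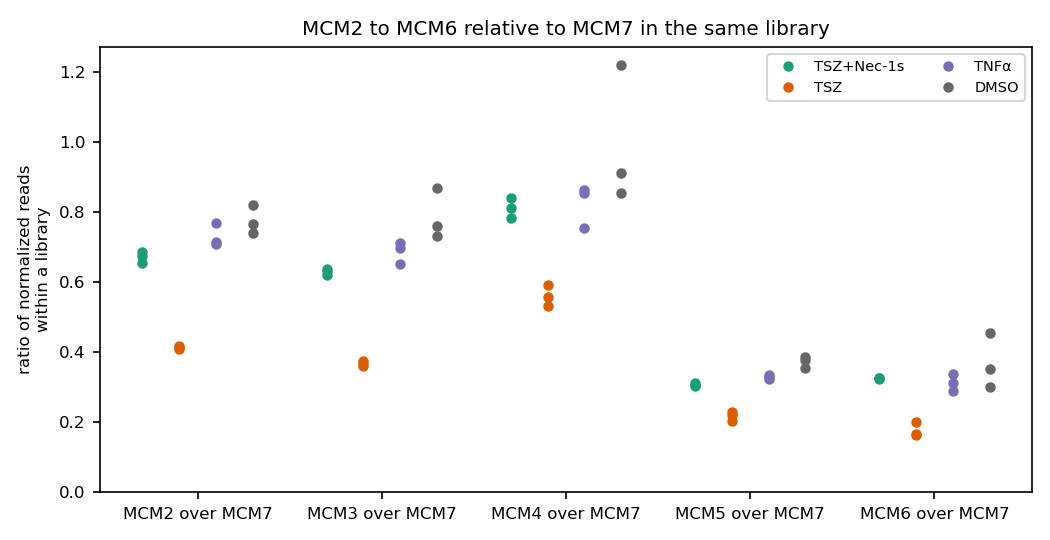
Ratio of normalized reads of MCM2 to MCM6 over MCM7 within each library (points), by treatment. The 3 TSZ points lie below all other points of the same ratio; MCM3 over MCM7 was 0.361 to 0.376 in TSZ libraries and 0.733 to 0.869 in DMSO libraries.

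GINS1, a subunit of the GINS complex, had 462, 462 and 472 normalized reads in the TSZ+Nec-1s libraries and 258, 256 and 245 in the TSZ libraries. For GINS1, the TNFα libraries held 579, 538 and 573 and the DMSO libraries 756, 739 and 721. The 4 groups did not overlap, in the order DMSO, TNFα, TSZ+Nec-1s and TSZ from high to low (log2 fold change -1.54 ± 0.09 SE, adjusted p = 2.4e-08 in TSZ over DMSO). GINS1 was also the only member called in TNFα over DMSO, where 0 members were higher and 1 was lower, against 3.12% and 1.08% of all genes (log2 fold change -0.39 ± 0.08 SE, adjusted p = 0.0153). At an unadjusted p under 0.05 limma gave 5 lower and 0 higher in TNFα over DMSO, with no share of all genes counted beside them. The GINS1 call did not hold with TNFα b, TNFα c or DMSO a left out, with log2 fold changes of -0.4 to -0.36, or with the GC trend removed (-0.28). GINS2, another subunit, had 513, 578 and 570.4 normalized reads in the TSZ+Nec-1s libraries and 362, 409 and 407 in the TSZ libraries. For GINS2, the TNFα libraries held 624, 668 and 641 and the DMSO libraries 746, 597 and 814. GINS3 had the lowest TSZ level of the complex relative to DMSO. GINS3 had 279.9, 292 and 301 normalized reads in the TSZ+Nec-1s libraries and 91, 133 and 133 in the TSZ libraries. For GINS3, the TNFα libraries held 353, 349 and 369 and the DMSO libraries 375, 353 and 393 (log2 fold change -1.67 ± 0.14 SE, adjusted p = 8.21e-07 in TSZ over DMSO and 1.31 in TSZ+Nec-1s over TSZ). GINS4 had 152, 145 and 157 normalized reads in the TSZ+Nec-1s libraries and 93.2, 141 and 97.6 in the TSZ libraries. For GINS4, the TNFα libraries held 175, 157 and 190.2 and the DMSO libraries 196, 149 and 179.6, and TSZ b lay just below the lowest DMSO library (adjusted p = 0.00581 in TSZ over DMSO). The GINS4 difference between TSZ+Nec-1s and TSZ was called (log2 fold change 0.47 ± 0.17 SE, adjusted p = 0.045) and was lost in 9 of the 12 fits that left out a library, with log2 fold changes of 0.36 to 0.5, and without the 3 AT-leaning libraries (0.35, adjusted p = 0.071). CDC45, which completes the helicase, was lower in TSZ (log2 fold change -0.52 ± 0.09 SE, adjusted p = 0.00048) and did not pass in TSZ+Nec-1s over TSZ (log2 fold change 0.23, adjusted p = 0.0654).

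Both other MCM proteins were lower in TSZ. MCM10, which is needed to activate the loaded helicase, had 573, 585 and 561 normalized reads in the TSZ+Nec-1s libraries and 262, 251 and 217 in the TSZ libraries. For MCM10, the TNFα libraries held 711, 648 and 739 and the DMSO libraries 682, 691 and 701, with TSZ below the other groups (log2 fold change -1.51 ± 0.11 SE, adjusted p = 1.08e-07). MCM8, a helicase of homologous recombination repair, had 472, 468 and 494 normalized reads in the TSZ+Nec-1s libraries and 312, 305 and 298 in the TSZ libraries. For MCM8, the TNFα libraries held 505, 419 and 471 and the DMSO libraries 519.5, 546 and 405 (log2 fold change -0.67 ± 0.13 SE, adjusted p = 0.000765). TSZ+Nec-1s values of MCM8 lay within the DMSO range.

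The origin recognition and licensing genes were mixed. Of 9 genes, 5 were lower in TSZ than in DMSO and 4 were not called, with a median log2 fold change of -0.5, and 6 were higher in TSZ+Nec-1s than in TSZ. ORC1, the largest subunit of the origin recognition complex and the one that cycles in human cells, had 603, 695 and 624 normalized reads in the TSZ+Nec-1s libraries and 384, 419.8 and 438 in the TSZ libraries. For ORC1, the TNFα libraries held 894, 867 and 847 and the DMSO libraries 895, 819.9 and 969 (log2 fold change -1.11 ± 0.10 SE, adjusted p = 1.83e-06). ORC1 was also the only member called in TSZ+Nec-1s over TNFα, where 1 member was lower and 0 were higher, against 0.256% and 1.1% of all genes (log2 fold change -0.44 ± 0.10 SE, adjusted p = 0.0451), and that call was lost in 9 of the 12 fits that left out a library. At an unadjusted p under 0.05 limma gave 13 lower and 1 higher in that comparison, with no share of all genes counted beside them. Without DMSO b 7 members were lower, against 2.34% of all genes. Without the 3 AT-leaning libraries 24 were lower and 10 higher, against 19.1% and 22.1% of all genes. ORC5 had 353, 340.3 and 375 normalized reads in the TSZ+Nec-1s libraries and 161, 141 and 109 in the TSZ libraries. For ORC5, the TNFα libraries held 353, 341 and 277 and the DMSO libraries 318, 396 and 323, with TSZ below each DMSO library (log2 fold change -1.33 ± 0.16 SE, adjusted p = 2.17e-05) and TSZ+Nec-1s within the DMSO range. The top of that range was DMSO b alone, and each TSZ+Nec-1s library lay above DMSO a and DMSO c. ORC6 had 424, 442 and 469 normalized reads in the TSZ+Nec-1s libraries and 256, 321 and 367 in the TSZ libraries. For ORC6, the TNFα libraries held 524, 489 and 471 and the DMSO libraries 569.9, 489 and 508 (log2 fold change -0.75 ± 0.13 SE, adjusted p = 0.000378). ORC3 had 372, 362 and 396 normalized reads in the TSZ+Nec-1s libraries and 286, 223 and 196 in the TSZ libraries. For ORC3, the TNFα libraries held 361, 288 and 266 and the DMSO libraries 274, 493 and 270.4. DMSO b lay far above the other DMSO libraries, and ORC3 did not pass in TSZ over DMSO (adjusted p = 0.0808) but was higher in TSZ+Nec-1s (log2 fold change 0.69 ± 0.22 SE, adjusted p = 0.0236). That rise was lost with TSZ+Nec-1s a or c or TSZ b or c left out, with log2 fold changes of 0.57 to 0.7. Without DMSO a, DMSO c, TSZ a or all 3 AT-leaning libraries, ORC3 was called lower in TSZ, with log2 fold changes of -0.65, -0.64, -0.65 and -0.37. ORC2 and ORC4 were not called in any comparison, and their DMSO b values of 584 and 477 stood above DMSO a (389 and 223) and DMSO c (265 and 197).

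CDC6, a loader of the MCM ring, was lower in TSZ by less than 1.5-fold (log2 fold change -0.42 ± 0.09 SE, adjusted p = 0.00165), and CDT1, its partner, likewise (log2 fold change -0.53 ± 0.16 SE, adjusted p = 0.0157). The CDT1 call was lost with TSZ a, DMSO a or DMSO c left out, with log2 fold changes of -0.47 to -0.38. GMNN, the inhibitor of CDT1, was not called in TSZ over DMSO (log2 fold change -0.24, adjusted p = 0.244) and was higher in TSZ+Nec-1s than in TSZ (log2 fold change 0.47 ± 0.16 SE, adjusted p = 0.0284), a call lost in 5 of the 12 fits that left out a library.

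The polymerase and primase genes held the 2 deepest falls of the list, those of PRIM1 and POLA2. Of 9 genes, 8 were lower in TSZ than in DMSO and 7 were higher in TSZ+Nec-1s than in TSZ, with medians of -1.07 and 1.02 on the log2 scale. PRIM1, the catalytic subunit of primase, had 218, 254 and 239 normalized reads in the TSZ+Nec-1s libraries and 92.1, 45.1 and 60.7 in the TSZ libraries. For PRIM1, the TNFα libraries held 259, 194 and 144 and the DMSO libraries 229.6, 323 and 201. TSZ lay below each library of the other groups and at 26% of the DMSO level (log2 fold change -1.95 ± 0.29 SE, adjusted p = 0.000124). TSZ+Nec-1s was higher than TSZ (log2 fold change 1.89 ± 0.29 SE, adjusted p = 0.000231) and within the DMSO range, whose top was the AT-leaning DMSO b. TSZ+Nec-1s b and c lay above DMSO a and DMSO c. PRIM2, the large primase subunit, had 258, 238 and 267 normalized reads in the TSZ+Nec-1s libraries and 184, 122 and 176 in the TSZ libraries. For PRIM2, the TNFα libraries held 210.2, 175 and 225 and the DMSO libraries 252, 303 and 248. It moved less (log2 fold change -0.75 ± 0.17 SE, adjusted p = 0.00237). POLA2, the accessory subunit of polymerase alpha, had 803, 819 and 756 normalized reads in the TSZ+Nec-1s libraries and 327, 293 and 318 in the TSZ libraries. For POLA2, the TNFα libraries held 978, 975 and 979.8 and the DMSO libraries 1145, 964 and 1099, with a spread within each group far below the distance between TSZ and the rest (log2 fold change -1.77 ± 0.10 SE, adjusted p = 1.62e-08). POLA1, the catalytic subunit, had 467, 477 and 471 normalized reads in the TSZ+Nec-1s libraries and 275, 231 and 196 in the TSZ libraries. For POLA1, the TNFα libraries held 546, 395 and 424 and the DMSO libraries 501, 498 and 466 (log2 fold change -1.07 ± 0.15 SE, adjusted p = 5.75e-05).

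The subunits of polymerase delta, which copies the lagging strand, parted. POLD3 had 644, 604 and 678 normalized reads in the TSZ+Nec-1s libraries and 295, 255 and 227 in the TSZ libraries. For POLD3, the TNFα libraries held 649, 598 and 809 and the DMSO libraries 793, 896 and 733 (log2 fold change -1.64 ± 0.15 SE, adjusted p = 1.08e-06), and POLD1, the catalytic subunit, was lower by less than 1.5-fold (log2 fold change -0.48 ± 0.13 SE, adjusted p = 0.00928). POLD2 had 2196, 2302 and 2229 normalized reads in the TSZ+Nec-1s libraries and 2387, 3034 and 2986 in the TSZ libraries. For POLD2, the TNFα libraries held 2366, 2741 and 2489 and the DMSO libraries 2443, 1763 and 2723. It was not called in either direction (log2 fold change 0.29 ± 0.14 SE, adjusted p = 0.11 in TSZ over DMSO). The ratio of POLD3 to POLD2 reads was 0.293, 0.262 and 0.304 in the TSZ+Nec-1s libraries, 0.124, 0.0841 and 0.0761 in the TSZ libraries, 0.274, 0.218 and 0.325 in the TNFα libraries and 0.325, 0.508 and 0.269 in the DMSO libraries. TSZ libraries lay below the others in this ratio (exact permutation p = 0.1, the smallest possible). Without the 3 AT-leaning libraries, POLD2 was called higher in TSZ (log2 fold change 0.23, adjusted p = 0.00655) and lower in TSZ+Nec-1s than in TSZ (-0.43, adjusted p = 2.03e-06), and with total reads as the scale it stood at -0.12. POLE, the catalytic subunit of the leading-strand polymerase epsilon, had 1679.6, 1792 and 1754 normalized reads in the TSZ+Nec-1s libraries and 1126, 1472 and 1477 in the TSZ libraries. For POLE, the TNFα libraries held 2031, 2114 and 2418 and the DMSO libraries 2397, 2065 and 2479.8 (log2 fold change -0.78 ± 0.12 SE, adjusted p = 0.000147). POLE2, its partner, had 151, 149 and 168 normalized reads in the TSZ+Nec-1s libraries and 69.9, 47.4 and 39.3 in the TSZ libraries. For POLE2, the TNFα libraries held 189, 136 and 109 and the DMSO libraries 156, 222 and 118 (log2 fold change -1.64 ± 0.30 SE, adjusted p = 0.000626), and DMSO b was the top DMSO value. The ratio of POLE2 to POLE reads overlapped between TSZ (0.0621, 0.0322 and 0.0266) and DMSO (0.065, 0.107 and 0.0474; exact permutation p = 0.2).

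**Figure D3:**
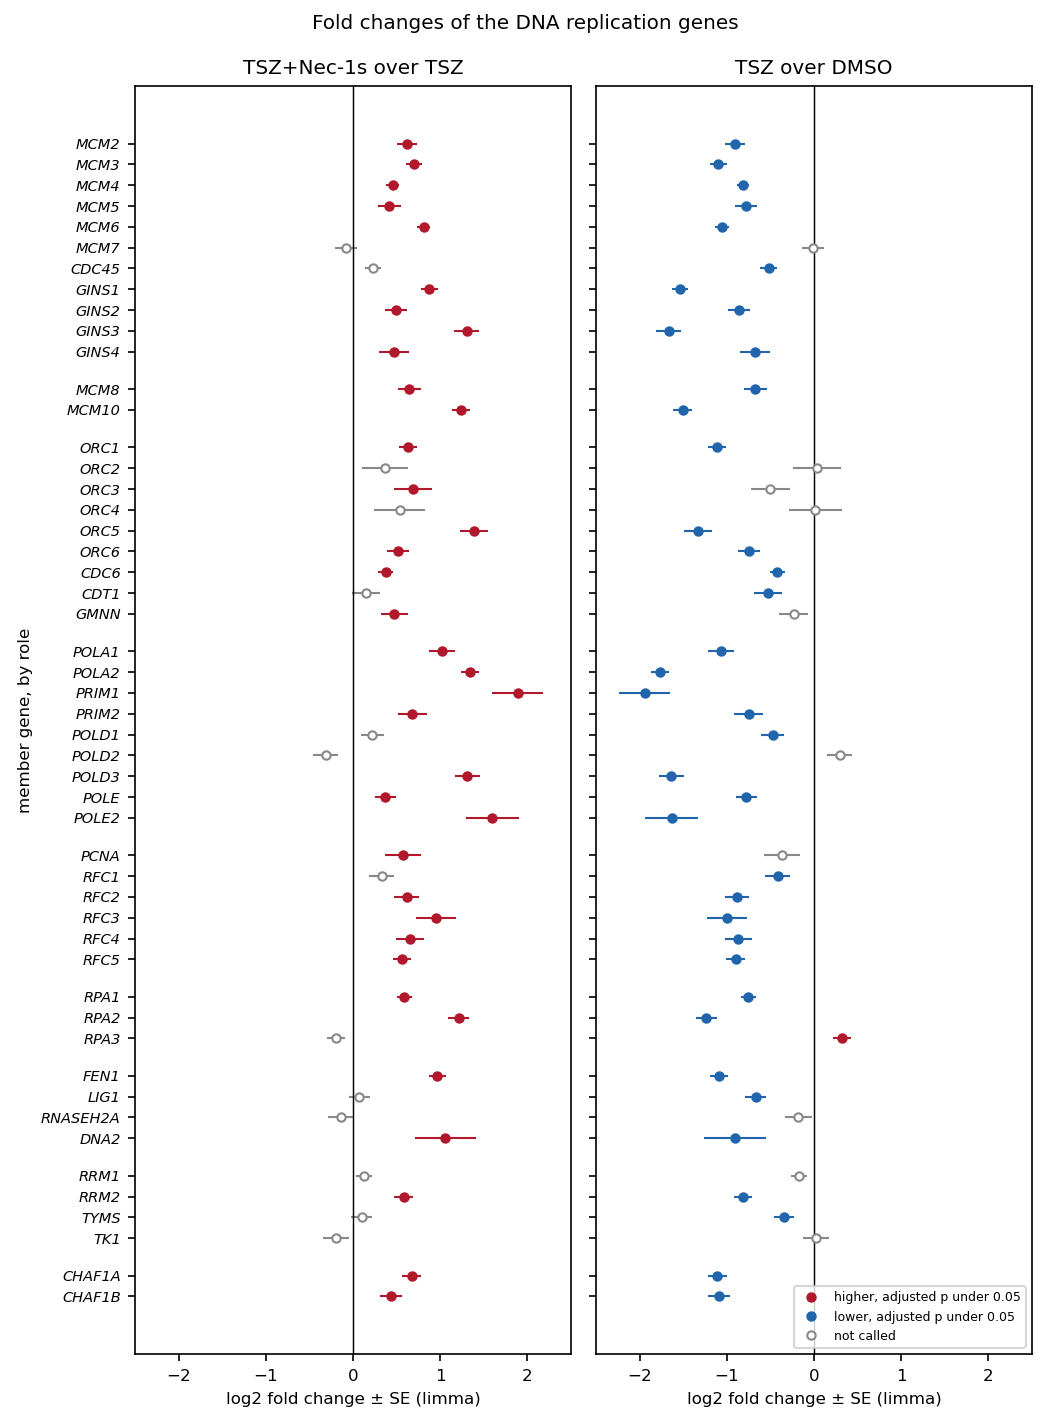
Log2 fold change (x axis, ± SE from limma) of each member (rows, by role) in TSZ+Nec-1s over TSZ (left) and TSZ over DMSO (right). Filled points passed an adjusted p under 0.05; in the right panel 39 are blue (lower) and 1 is red (RPA3, 0.32), and in the left panel 36 are red (higher).

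The clamp loader fell and the clamp did not pass. PCNA, the sliding clamp, had 3406, 3140 and 3268 normalized reads in TSZ+Nec-1s libraries, 2809, 1851 and 2041 in TSZ libraries, 3292, 2631 and 2003 in TNFα libraries and 2809, 3683 and 2208 in DMSO libraries. The TSZ and DMSO ranges of PCNA overlapped (log2 fold change -0.37 ± 0.21 SE, adjusted p = 0.16), and PCNA was higher in TSZ+Nec-1s than in TSZ (log2 fold change 0.57 ± 0.21 SE, adjusted p = 0.0404), a call lost in 7 of the 12 fits that left out a library. Of the RFC genes, which load PCNA, RFC3 had 1022, 906 and 969 normalized reads in the TSZ+Nec-1s libraries and 686, 415 and 433 in the TSZ libraries. For RFC3, the TNFα libraries held 911, 775 and 799 and the DMSO libraries 863, 1473 and 786 (log2 fold change -1.0 ± 0.23 SE, adjusted p = 0.00281). DMSO b stood far above DMSO a and DMSO c, and RFC3 only just reached the 2-fold limit (2.00014-fold). RFC2 had 729, 741 and 748 normalized reads in the TSZ+Nec-1s libraries and 410.5, 504 and 544 in the TSZ libraries. For RFC2, the TNFα libraries held 781, 942 and 865 and the DMSO libraries 944, 738 and 1012, with TSZ below each DMSO library. RFC4 had 331, 309 and 393 normalized reads in the TSZ+Nec-1s libraries and 269.6, 199.8 and 188 in the TSZ libraries. For RFC4, the TNFα libraries held 429, 387 and 353 and the DMSO libraries 441, 378 and 369.8. RFC5 had 529.8, 559 and 564 normalized reads in the TSZ+Nec-1s libraries and 368, 402 and 351 in the TSZ libraries. For RFC5, the TNFα libraries held 577, 634 and 713 and the DMSO libraries 706, 673 and 714, with TSZ below each DMSO library. RFC2, RFC4 and RFC5 were lower in TSZ than in DMSO, with log2 fold changes of -0.88, -0.87 and -0.90. RFC1, the large subunit, was the least changed (log2 fold change -0.42 ± 0.14 SE, adjusted p = 0.0263), and its call was lost with TSZ b, TSZ c, DMSO a or DMSO b left out, with log2 fold changes of -0.42 to -0.29.

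The subunits of RPA, which coats single-stranded DNA, did not move together. RPA2 had 886, 926 and 858 normalized reads in the TSZ+Nec-1s libraries and 324, 406 and 432 in the TSZ libraries. For RPA2, the TNFα libraries held 1013, 988 and 972 and the DMSO libraries 989.5, 818 and 914 (log2 fold change -1.24 ± 0.12 SE, adjusted p = 2.21e-06). RPA1, the large subunit, had 1648, 1843 and 1788 normalized reads in the TSZ+Nec-1s libraries and 1129, 1181 and 1195 in the TSZ libraries. For RPA1, the TNFα libraries held 1713, 1873 and 1818 and the DMSO libraries 1952, 1905 and 2053 (log2 fold change -0.75 ± 0.08 SE, adjusted p = 8.28e-06). RPA3, the smallest subunit, had 266, 263 and 255 normalized reads in the TSZ+Nec-1s libraries and 324, 286 and 289 in the TSZ libraries. For RPA3, the TNFα libraries held 257, 262 and 267 and the DMSO libraries 250.3, 224 and 244, each TSZ library above each DMSO library (log2 fold change 0.32 ± 0.11 SE, adjusted p = 0.0214). This was the only member called higher in TSZ, and it did not pass with TSZ a (log2 fold change 0.26) or DMSO b (0.28) left out or without the 3 AT-leaning libraries (0.22), and it reversed to -0.09 with total reads as the scale. The ratio of RPA2 to RPA3 reads, which no scale touches, was 3.33, 3.52 and 3.37 in the TSZ+Nec-1s libraries, 1, 1.42 and 1.49 in the TSZ libraries, 3.94, 3.78 and 3.64 in the TNFα libraries and 3.95, 3.65 and 3.75 in the DMSO libraries. TSZ lay below the other groups in this ratio (exact permutation p = 0.1, the smallest possible). Reads were counted without strand, and 25 of the 50 members share some annotated exon bases with another gene, over 20% of them for RNASEH2A, TYMS, MCM8, MCM2, GINS4 and POLA2.

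**Figure D4:**
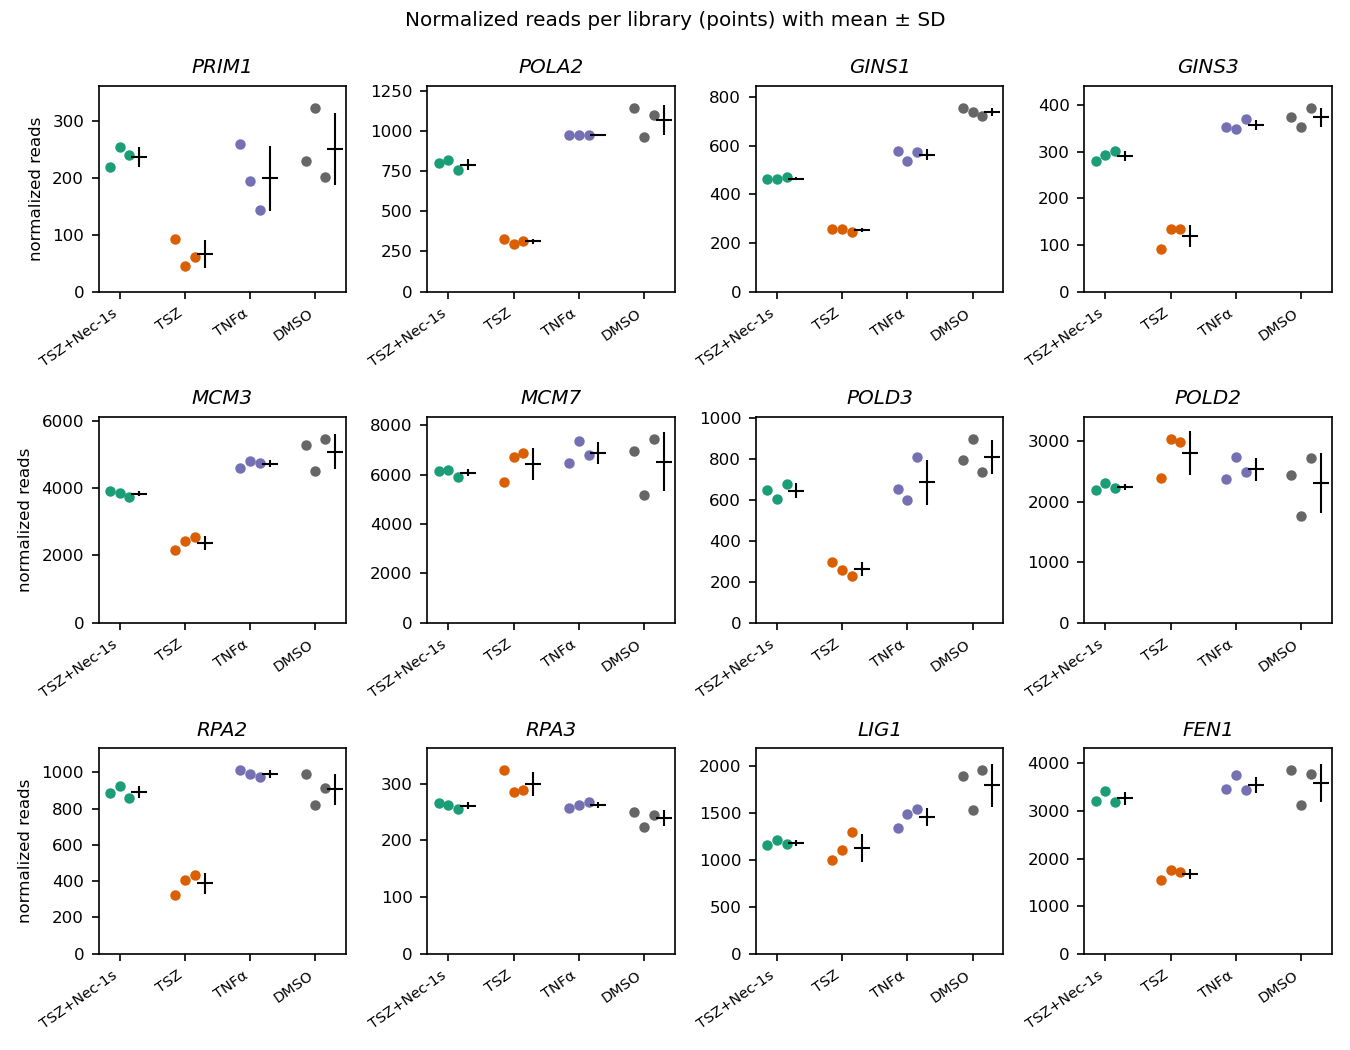
Normalized reads (y axis, from 0) of 12 members in each library (points) with the mean ± SD of the 3 libraries (black), by treatment. TSZ points of PRIM1, POLA2, GINS1, GINS3, MCM3, POLD3, RPA2 and FEN1 lie below all other groups, those of MCM7 and POLD2 do not, and LIG1 is also low in TSZ+Nec-1s.

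Of the genes that mature Okazaki fragments, FEN1, the flap endonuclease, had 3203, 3428 and 3181 normalized reads in the TSZ+Nec-1s libraries and 1554, 1763 and 1717 in the TSZ libraries. For FEN1, the TNFα libraries held 3461, 3751 and 3438 and the DMSO libraries 3863, 3126 and 3774 (log2 fold change -1.09 ± 0.10 SE, adjusted p = 1.29e-06 in TSZ over DMSO and 0.96 in TSZ+Nec-1s over TSZ). LIG1, the ligase that seals the fragments, had 1160.1, 1213 and 1163 normalized reads in the TSZ+Nec-1s libraries and 995, 1102 and 1290.1 in the TSZ libraries. For LIG1, the TNFα libraries held 1342, 1485 and 1535 and the DMSO libraries 1896, 1532 and 1955. It was lower in TSZ (log2 fold change -0.67 ± 0.12 SE, adjusted p = 0.000423) and was not called in TSZ+Nec-1s over TSZ (log2 fold change 0.07, adjusted p = 0.66), although it was called higher there with total reads as the scale (0.41) or the GC trend removed (0.27), and it stayed below DMSO in TSZ+Nec-1s (log2 fold change -0.60 ± 0.12 SE, adjusted p = 0.00405). DNA2, a nuclease that cuts long flaps, had 263, 251 and 274 normalized reads in the TSZ+Nec-1s libraries and 179.7, 112 and 97.6 in the TSZ libraries. For DNA2, the TNFα libraries held 254, 154 and 152 and the DMSO libraries 204, 431 and 152, with DMSO b far above the other 2 DMSO libraries (log2 fold change -0.91 ± 0.36 SE, adjusted p = 0.0492). The DNA2 call was lost in 9 of the 12 fits that left out a library, with -0.5 as the value without DMSO b. DNA2 was called higher in TSZ+Nec-1s than in TSZ, and that call was lost with TSZ+Nec-1s a, b or c or TSZ b or c left out, with log2 fold changes of 0.88 to 1.09. RNASEH2A, the catalytic subunit of RNase H2, was not called (log2 fold change -0.18 ± 0.15 SE, adjusted p = 0.341), and 53.3% of its annotated exon bases are shared with THSD8, where reads of the 2 genes cannot be told apart without strand.

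Of the nucleotide supply genes, only RRM2 and TYMS were lower in TSZ. RRM2, the cell-cycle-regulated subunit of ribonucleotide reductase, had 3215, 3253 and 3264 normalized reads in the TSZ+Nec-1s libraries and 2408, 2065 and 2055 in the TSZ libraries. For RRM2, the TNFα libraries held 3199, 3075 and 3307 and the DMSO libraries 3631, 4499 and 3411 (log2 fold change -0.81 ± 0.11 SE, adjusted p = 3.75e-05). Its partner RRM1 was not called (log2 fold change -0.17 ± 0.09 SE, adjusted p = 0.14), and the ratio of RRM2 to RRM1 was 1.08, 1.03 and 1.1 in the TSZ+Nec-1s libraries, 0.785, 0.794 and 0.768 in the TSZ libraries, 1.1, 1.11 and 1.22 in the TNFα libraries and 1.13, 1.35 and 1.2 in the DMSO libraries. TYMS, which makes thymidylate, was lower by less than 1.5-fold (log2 fold change -0.35 ± 0.12 SE, adjusted p = 0.0258), and its call was lost with TSZ a, TSZ c, DMSO a or DMSO c left out, with log2 fold changes of -0.36 to -0.25. TK1, a thymidine kinase of S phase, was not called (log2 fold change 0.02 ± 0.15 SE, adjusted p = 0.928). TK1 and RRM1 were called lower with total reads as the scale (log2 fold changes -0.4 and -0.58).

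Both members of chromatin assembly factor 1, which places histones behind the fork, were lower in TSZ. CHAF1A had 803, 818 and 846 normalized reads in the TSZ+Nec-1s libraries and 478, 543 and 529.6 in the TSZ libraries. For CHAF1A, the TNFα libraries held 1009, 1089 and 1062 and the DMSO libraries 1217, 956 and 1191 (log2 fold change -1.11 ± 0.11 SE, adjusted p = 2.94e-06). CHAF1B had 287, 296 and 274 normalized reads in the TSZ+Nec-1s libraries and 204, 231 and 199 in the TSZ libraries. For CHAF1B, the TNFα libraries held 392, 371 and 435 and the DMSO libraries 496, 391 and 469 (log2 fold change -1.09 ± 0.13 SE, adjusted p = 1.29e-05), and its rise in TSZ+Nec-1s over TSZ (log2 fold change 0.44 ± 0.13 SE, adjusted p = 0.0173) was lost with TSZ+Nec-1s a, TSZ+Nec-1s b or TSZ c left out, with log2 fold changes of 0.39 to 0.43. Of the calls in TSZ+Nec-1s over TSZ, that of MCM5 was lost with TSZ+Nec-1s a, b or c or TSZ a or c left out (log2 fold changes 0.34 to 0.42) and that of POLE with TSZ+Nec-1s b or c or TSZ a left out (0.24 to 0.36).

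TSZ+Nec-1s cells did not in all cases reach the DMSO level. Against DMSO, 11 members were lower and 0 were higher, against 5.76% and 7.17% of all genes. They are MCM3, MCM4, MCM6, GINS1, ORC1, POLA2, POLE, RFC5, LIG1, CHAF1A and CHAF1B, and each of the 11 was also lower in TSZ than in DMSO. Among the 12 fits that left out a library, the call of MCM6 was lost in 9, those of POLE and RFC5 in 6 each, that of CHAF1A in 3 and that of MCM3 in 2. GINS1 showed the widest gap (log2 fold change -0.67 ± 0.08 SE, adjusted p = 0.000128), and CHAF1B followed (log2 fold change -0.66 ± 0.12 SE, adjusted p = 0.00244). At an unadjusted p under 0.05 limma gave 21 lower and 0 higher, with no share of all genes counted beside them. The count of 11 was 25 without DMSO b, against 14.4% of all genes, 29 without the 3 AT-leaning libraries, against 23.1%, and 6 without DMSO a, against 2.71%. It was 7 with any 1 of the TSZ+Nec-1s libraries left out, against 2.66 to 3.18%. In TSZ over TNFα, 36 members were lower and 0 were higher, against 21.6% and 22.7% of all genes, with a median of -0.67. At an unadjusted p under 0.05 limma also gave 36 lower and 0 higher, again with no share of all genes.

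The order of the 4 group means was DMSO, TNFα, TSZ+Nec-1s and TSZ from high to low for 26 of the 50 members, against 12.1% of all genes tested, and the lowest group mean was in TSZ for 43, against 38.9%. Between TNFα and DMSO, and between TSZ+Nec-1s and TNFα, only 1 member each was called, so for the other members these neighbours in the order did not pass the test. The median coefficient of variation of the members was 3.9% in TSZ+Nec-1s, 10.5% in TSZ, 7.6% in TNFα and 12.8% in DMSO.

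Per kilobase of the annotated transcript, MCM7 was the most abundant member in TSZ, TNFα and DMSO, with a mean of 2611 normalized reads per kilobase in TSZ and 2648 in DMSO. In TSZ+Nec-1s PCNA was at 2564 and MCM7 at 2465. TK1 and PCNA followed in DMSO, at 2341 and 2273, and in TSZ cells at 2339 and 1750.5. The least abundant member per kilobase in DMSO was ORC4 at 45.7, with GINS4 at 46.4, and in TSZ it was GINS4 at 29.3.

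Promoter windows of 300 bases around the start, from RefSeq on GRCh38.p14, were found for 43 of the 50 members. E2F sites were searched on both strands as TTTCCCGC, TTTCGCGC, TTTGGCGC and TTTGCCGC, with the shorter core TTCCCGC, which overlaps the first of them. One of these was in the windows of 27 of 43 members (62.8%), against 16% of the 8890 genes tested that have a window and 9.62% of the 27305 genes in the table. Among the members the share was 63.6% of 33 that were lower in TSZ and 60% of 10 that were not called. CCAAT was in 62.8% of the members' windows, against 43.6% of the genes tested. The CHR elements TTTGAA and TTCGAA were in 4.65% of the members' windows, against 15.2%. A match is a string of letters in a window and not a bound site. The windows below are those of PRIM1, POLA2 and GINS3, 3 of the members with the deepest falls, and of RRM1, which was not called in any comparison, with matches to the E2F and CCAAT letters in capitals, which share a base in PRIM1. The windows of ORC2 and RNASEH2A, also called in no comparison, hold 0 E2F matches and 1 CCAAT match each and are not shown. PRIM1 lies on chr12:56730438-56752374, POLA2 on chr11:65261913-65305959 and GINS3 on chr16:58295080-58406147 in the GENCODE 44 annotation of hg38. The windows are at chr12:56752274-56752573, minus strand, chr11:65261712-65262011, plus strand, chr16:58392221-58392520, plus strand and chr11:4094435-4094734, plus strand.
PRIM1: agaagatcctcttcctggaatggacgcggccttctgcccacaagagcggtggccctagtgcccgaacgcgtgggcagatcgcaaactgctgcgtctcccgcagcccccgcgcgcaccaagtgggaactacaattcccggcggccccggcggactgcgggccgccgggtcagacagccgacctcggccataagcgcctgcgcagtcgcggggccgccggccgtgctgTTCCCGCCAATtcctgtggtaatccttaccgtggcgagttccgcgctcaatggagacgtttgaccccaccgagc
POLA2: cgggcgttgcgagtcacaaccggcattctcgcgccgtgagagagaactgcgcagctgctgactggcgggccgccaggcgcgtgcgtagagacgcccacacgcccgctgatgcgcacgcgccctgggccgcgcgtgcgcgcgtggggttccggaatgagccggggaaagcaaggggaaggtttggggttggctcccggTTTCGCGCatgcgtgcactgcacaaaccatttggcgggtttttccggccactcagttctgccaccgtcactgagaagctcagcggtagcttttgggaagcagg
GINS3: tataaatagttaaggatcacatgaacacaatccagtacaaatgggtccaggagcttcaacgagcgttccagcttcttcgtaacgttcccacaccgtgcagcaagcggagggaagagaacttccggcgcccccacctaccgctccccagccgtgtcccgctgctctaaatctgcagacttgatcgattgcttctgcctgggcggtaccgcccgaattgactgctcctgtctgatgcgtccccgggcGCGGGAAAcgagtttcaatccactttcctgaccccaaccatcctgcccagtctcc
RRM1: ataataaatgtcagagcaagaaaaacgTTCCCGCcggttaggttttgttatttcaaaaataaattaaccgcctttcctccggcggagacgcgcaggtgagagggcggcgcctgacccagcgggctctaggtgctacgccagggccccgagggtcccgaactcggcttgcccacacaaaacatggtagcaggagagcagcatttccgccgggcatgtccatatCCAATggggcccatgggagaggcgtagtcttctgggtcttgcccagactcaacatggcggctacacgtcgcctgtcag

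Other genes of the same processes were taken from lists. Of 28 other replisome and fork genes, 17 were lower in TSZ than in DMSO and 1 was higher, with a median log2 fold change of -0.59. The shares of all genes tested, 24.2% lower and 25.9% higher, stand beside each list count in TSZ over DMSO here and below. DSCC1, of an alternative clamp loader, had 1014, 1057 and 951 normalized reads in the TSZ+Nec-1s libraries and 505, 322 and 306 in the TSZ libraries. For DSCC1, the TNFα libraries held 931, 797 and 759.7 and the DMSO libraries 840.1, 1657 and 848 (log2 fold change -1.52 ± 0.26 SE, adjusted p = 0.000296). DMSO b of DSCC1 stood far above DMSO a and DMSO c. POLD4, the small subunit of polymerase delta, had 659.5, 693 and 666 normalized reads in the TSZ+Nec-1s libraries and 1098, 1293 and 1294 in the TSZ libraries. For POLD4, the TNFα libraries held 589.6, 661 and 631 and the DMSO libraries 497, 386 and 602, with TSZ above all others (log2 fold change 1.33 ± 0.14 SE, adjusted p = 4.32e-06). CLSPN, a fork checkpoint adaptor, had 674, 767 and 699 normalized reads in the TSZ+Nec-1s libraries and 324, 307 and 284 in the TSZ libraries. For CLSPN, the TNFα libraries held 804, 646 and 723 and the DMSO libraries 751, 869 and 676 (log2 fold change -1.32 ± 0.13 SE, adjusted p = 2.86e-06). Of 15 other genes of nucleotide metabolism and chromatin, not all of which serve supply, 6 were lower, with a median of -0.26. UHRF1, SAMHD1 and ASF1B had log2 fold changes of -1.42, -1.18 and -0.91.

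Of 33 G1/S regulators, 32 were tested, with 16 lower and 7 higher in TSZ than in DMSO, against 24.2% and 25.9% of all genes. The 7 higher are near that share and are not read as a result about the list. CDKN1A, the CDK inhibitor p21, had 719.6, 695 and 761 normalized reads in the TSZ+Nec-1s libraries and 5955, 7596 and 7809 in the TSZ libraries. For CDKN1A, the TNFα libraries held 417, 427 and 433 and the DMSO libraries 102, 83 and 119. It was higher in TSZ (log2 fold change 6.13 ± 0.16 SE, adjusted p = 1.71e-11) and lower in TSZ+Nec-1s than in TSZ (log2 fold change -3.29 ± 0.12 SE, adjusted p = 4.08e-10). CDKN2B, the CDK4 and CDK6 inhibitor p15, had 167, 161 and 164 normalized reads in the TSZ+Nec-1s libraries and 1213, 1202 and 1131 in the TSZ libraries. For CDKN2B, the TNFα libraries held 129, 109.7 and 111 and the DMSO libraries 82.8, 108 and 95.1 (log2 fold change 3.64 ± 0.12 SE, adjusted p = 1.04e-10). CDKN2C, the inhibitor p18, had 75.9, 75.5 and 66.4 normalized reads in the TSZ+Nec-1s libraries and 9.98, 15.8 and 15.5 in the TSZ libraries. For CDKN2C, the TNFα libraries held 83.2, 62.6 and 74.1 and the DMSO libraries 122, 139.8 and 128. It moved the other way (log2 fold change -3.21 ± 0.25 SE, adjusted p = 2.62e-07). Of 34 mitosis genes, 24 were lower and 1 was higher, with a median of -0.62. KIF20A, a mitotic kinesin, had 669.8, 690.2 and 706 normalized reads in the TSZ+Nec-1s libraries and 233, 230.2 and 318 in the TSZ libraries. For KIF20A, the TNFα libraries held 759, 787 and 794 and the DMSO libraries 813, 759.9 and 829 (log2 fold change -1.64 ± 0.12 SE, adjusted p = 1.76e-07). HMMR and CDC25C had log2 fold changes of -1.31 and -1.26. For HMMR the groups overlapped, with TSZ a (169) above DMSO c (124), and DMSO b (432) stood far above DMSO a (212). The median of the 50 members, -0.8, is given beside that of the mitosis list with no test of the difference. In TSZ+Nec-1s over TSZ, 22 mitosis genes were higher and 0 lower, with a median of 0.64, against 0.58 over the members. The rise was thus not particular to the members. The other replisome and fork genes had 15 higher and 1 lower (median 0.51), and the G1/S regulators 13 and 8 (0.13). The nucleotide and chromatin list had 5 and 0 (0.25), against 19.8% and 22.6% of all genes.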

How the data were processed

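RNA-seq of 12 HT-29 libraries in 4 groups was analysed. Per the study's methods and the submitters' processing notes, reads were mapped to hg38 with STAR, counted per gene with HTSeq (intersection-strict, strand not used) and scaled with DESeq. The deposited signal values are the authors' group means of counts divided by a size factor per library, in 6 tables of 26485 genes. Each group's means were identical in its 3 tables. The tables' other columns, the authors' overall mean, fold changes, log2 fold changes, p-values and adjusted p-values, were not used. The sources differ on the RNA extraction reagent and library kit.

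Since a group mean is a sum of whole reads times a step per library, the 3 steps and the reads of each library were solved from the means. Of genes above 0, 99.75 to 99.99% were solved, and those left out were the most abundant. Recomputing size factors on the solved reads gave the same values within 0.0021 in relative terms. The procedure and the test were also checked on simulated data. The check of the procedure left out the largest group means, such as those of MCM4 and MCM7 in DMSO, which were solved by a narrower search. The simulation of the test held fewer changed genes than these data and no GC lean. Solved reads cannot be tied to the labels' replicate numbers.

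Genes solved in all groups with a mean of at least 10 normalized reads (11717) were tested with limma 3.58.1 in R 4.3.3, with voom precision weights, the authors' size factors, 1 fit over 4 groups and Benjamini-Hochberg adjustment over all genes. A call is an adjusted p under 0.05. Transcript lengths, GC and exons came from GENCODE 44, in which 23161 symbols matched, all members among them. Alternatives were other scalings, filters, weights, a GC correction, pairwise fits, a threshold of 0.01 and leaving out libraries, and leaving out the 3 AT-leaning libraries together was chosen after seeing the data. Intervals and counts cover these libraries only.

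Members and lists were chosen with earlier results of these data known. Values per library are given for members called with at least a 1.5-fold change in TSZ over DMSO or TSZ+Nec-1s over TSZ, the most changed member of each role, and called members that moved against their role. From the other lists, up to 3 called genes with the widest change and a mean of at least 50 are named. PCNA, MCM7 and POLD2 were added after their values were seen.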

Additional observations from a re-analysis of the deposited data

How the results depend on the processing

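No paired analysis was possible because the reads solved for each library cannot be tied to the replicate numbers of the labels, so no replicate block was fitted. Members lower in TSZ over DMSO numbered 39, with 34 to 46 under the other settings and 36 to 39 with 1 library left out, members higher in TSZ+Nec-1s over TSZ numbered 36, with 28 to 45 and 29 to 39, and members lower in TSZ over TNFα numbered 36, with 31 to 44 and 33 to 37. These 3 counts stayed within 1.5 times under each setting. The shares of all genes moved as well. Under total reads 48.5% of all genes were lower in TSZ over DMSO, against 24.2% in the fit used above. In TSZ+Nec-1s over TSZ 42.2% were then higher, against 19.8%. In TSZ over TNFα 42.4% were then lower, against 21.6%. The smaller counts moved, and the cause was not tested. Members higher in TSZ over DMSO numbered 1, with 0 under total reads, upper quartile, pairwise fits and a threshold of 0.01, 2 with the GC trend removed, and 0 to 2 with 1 library left out. Members lower in TSZ+Nec-1s over TSZ numbered 0, with 1 under the GC correction and pairwise fits, 3 without the 3 AT-leaning libraries, and 0 to 1 with 1 library left out. In TSZ+Nec-1s over DMSO, 11 were lower, with 20 under total reads, 25 under the GC correction, 7 in pairwise fits, 29 without the 3 AT-leaning libraries, 6 at 0.01, and 6 to 25 with 1 library left out, and 0 were higher, with 1 under the GC correction, 7 without the 3 AT-leaning libraries, and 0 to 4 with 1 library left out. Of all genes, 5.76% were lower in TSZ+Nec-1s over DMSO in the fit used above. That share was 11% under total reads, 14.5% under the GC correction, 3.22% in pairwise fits and 23.1% without the 3 AT-leaning libraries. In TNFα over DMSO, 1 was lower, with 2 under total reads and without the 3 AT-leaning libraries, 0 in pairwise fits and at 0.01, and 0 to 2 with 1 library left out. All genes lower there were 1.08%, with 1.97% under total reads and 4.02% without the 3 AT-leaning libraries. In TSZ over TNFα, 0 were higher, and 1 was without the 3 AT-leaning libraries. In TSZ+Nec-1s over TNFα, 1 was lower, with 2 under total reads, 0 under upper quartile, no minimum mean, no precision weights and 0.01, 10 under the GC correction, 16 in pairwise fits, 24 without the 3 AT-leaning libraries, and 0 to 7 with 1 library left out, and 0 were higher, with 1 under the GC correction, 4 in pairwise fits, 10 without the 3 AT-leaning libraries, and 0 to 1 with 1 library left out. Of all genes, 0.256% were lower and 1.1% higher in TSZ+Nec-1s over TNFα in the fit used above. Those lower were 2.68% under the GC correction, 9.83% in pairwise fits and 19.1% without the 3 AT-leaning libraries. Those higher were 2.85%, 17% and 22.1% in the same order. In TNFα over DMSO the GC correction also gave 1 lower, LIG1 in place of GINS1, against 4.45% of all genes. Directions reversed for 4 members. Under total reads, RPA3 turned to -0.09 and POLD2 to -0.12 in TSZ over DMSO, and RPA3 to 0.14, POLD2 to 0.02 and MCM7 to 0.26 in TSZ+Nec-1s over TSZ, where MCM7 was also at 0.04 under the GC correction and LIG1 at -0.02 without the 3 AT-leaning libraries. With 1 library left out, LIG1 there ranged from -0.02 (without TSZ a) to 0.17, and MCM7 in TSZ over DMSO from -0.17 to 0.09, above 0 without TSZ a, DMSO a or DMSO c. Over the 38 members with values per library, 1356 of the repeated log2 fold changes kept direction and side of the threshold, 53 lost the threshold, 24 gained it and 11 reversed. A lone pair of libraries left in a group is assumed to vary like the other groups. At these depths, calls below 1.5-fold depend on the spread of 3 libraries.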
